A study of Mus musculus with 51 samples.

Results

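Total H3K27me3 was compared between matDKO/CAST and B6/CAST embryos at E6.5, separately in the extraembryonic ectoderm (ExE) and the epiblast, with 2 libraries on each side in each tissue. These 8 libraries were taken from the 51 in the series, which holds H3K4me3, H3K36me3, H3K27me3 and input chromatin of both tissues, made by native ChIP-seq with micrococcal nuclease from low cell numbers. Regions were the union of 4 lists of H3K27me3 peaks (B6/CAST and CAST/B6, each tissue) on the 19 autosomes, and 20799 of 23414 regions passed a minimum mean of 0.5 RPKM (reads normalised to window length and library size) over the 12 H3K27me3 libraries of the 3 crosses. Regions where the mean input of matDKO/CAST and of B6/CAST differed 1.5-fold or more were set apart, 183 in ExE and 67 in epiblast, which left 20616 and 20732. The strain labels of matDKO/CAST epiblast input 3 and ExE input 2 name no 129, unlike those of the other matDKO/CAST inputs and of the H3K27me3 libraries. Without these 2 inputs, 490 regions in ExE and 151 in epiblast were set apart, and the calls by limma given below became 0 in ExE and 12 in epiblast.

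Embryos of all groups had a CAST/Ei father, except those of CAST/B6, which had a CAST/Ei mother and a C57BL6/Babr father. B6/CAST and CAST/B6 embryos were wild type. The mothers of matDKO/CAST embryos were of B6/129 background, carried Dnmt3a fl/fl and Dnmt3b fl/fl, and expressed Zp3-cre, which is active in growing oocytes, so that their embryos were Dnmt3a -/+ and Dnmt3b -/+ with both deletions inherited from the mother. The wild-type mothers carried neither Zp3-cre nor a 129 background, so genotype, strain and transgene cannot be told apart in this comparison. Epiblast libraries came from pools of 4 embryos and ExE libraries from pools of 8. The sources do not say that a replicate number marks a shared litter, so p-values measure the spread between pools. In bulk chromatin, a change in the share of cells carrying a mark and a change of the mark in each cell cannot be told apart.

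DNMT3A and DNMT3B are the de novo DNA methyltransferases, and in the oocyte they set the methylation that becomes maternal imprints. H3K27me3 is laid down by Polycomb repressive complex 2 (PRC2) and marks silent developmental genes, largely over CpG-rich sequence without DNA methylation. At several imprinted clusters of the placental lineage, a long non-coding RNA expressed from the unmethylated paternal chromosome brings PRC2 to genes at a distance on the same chromosome. At Zdbf2, in contrast, H3K27me3 covers the gene on the maternal chromosome, where an upstream start is methylated in the oocyte, and transcription from that upstream start on the paternal chromosome is needed for the DNA methylation and the absence of H3K27me3 downstream.

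The sequences before 4 starts of 3 genes on which the results turn are given by RefSeq on GRCm38.p6, as the 250 bases before the start, with CpG dinucleotides in capitals since these are the sites that DNA methyltransferases modify. The first lies inside the Zdbf2 H3K27me3 domain (chr1:63273019-63273268, plus strand, 26 CpG), the second before the upstream Zdbf2 start (chr1:63200108-63200357, plus strand, 13 CpG), the third before the first Gnas start, that of the Nesp transcript (chr2:174284070-174284319, plus strand, 14 CpG), and the fourth before Phlda2 in the Kcnq1 cluster (chr7:143502525-143502774, minus strand, 21 CpG). Of 32851 RefSeq promoter windows of this length, 92.1% held at least 1 CpG, and 9.59%, 31.5%, 29.4% and 16.3% held as many as these, in that order.
Zdbf2 start: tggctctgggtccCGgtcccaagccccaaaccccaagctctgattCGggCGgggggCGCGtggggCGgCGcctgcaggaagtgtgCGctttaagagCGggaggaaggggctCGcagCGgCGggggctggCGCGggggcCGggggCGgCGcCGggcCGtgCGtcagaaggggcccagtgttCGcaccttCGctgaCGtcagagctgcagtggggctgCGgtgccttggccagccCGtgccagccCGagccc
Zdbf2 upstream start: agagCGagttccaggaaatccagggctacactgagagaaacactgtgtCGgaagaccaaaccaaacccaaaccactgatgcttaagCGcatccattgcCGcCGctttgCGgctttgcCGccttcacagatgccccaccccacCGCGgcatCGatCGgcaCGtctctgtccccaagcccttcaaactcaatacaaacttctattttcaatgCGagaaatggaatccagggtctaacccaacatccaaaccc
Nesp start: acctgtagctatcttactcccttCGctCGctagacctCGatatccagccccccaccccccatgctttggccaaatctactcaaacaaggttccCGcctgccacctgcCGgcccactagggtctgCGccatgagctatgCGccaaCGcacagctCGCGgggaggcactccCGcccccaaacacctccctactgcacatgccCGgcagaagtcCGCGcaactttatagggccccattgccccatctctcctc
Phlda2 start: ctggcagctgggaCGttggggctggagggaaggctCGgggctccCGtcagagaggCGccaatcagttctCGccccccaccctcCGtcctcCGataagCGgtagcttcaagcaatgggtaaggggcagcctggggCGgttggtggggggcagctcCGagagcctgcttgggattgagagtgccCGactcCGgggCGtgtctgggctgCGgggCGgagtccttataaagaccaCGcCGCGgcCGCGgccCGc

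The libraries differed in depth and in enrichment. Reads per library, recovered from the steps of the RPKM values, ranged from 3.68 M (matDKO/CAST epiblast replicate 2) to 13.5 M among the 4 epiblast libraries compared and from 10.3 to 16.1 M in ExE. The share of autosomal signal within the peaks was 52.7% and 48.7% in B6/CAST ExE against 53.8% and 42.7% in matDKO/CAST ExE, and was 48.2% and 42.9% against 45.1% and 42.0% in epiblast. Over these peaks of both tissues the groups overlapped, with an exact permutation p of 1 in ExE and 0.667 in epiblast, where 2 libraries against 2 cannot go below 0.333. Over the epiblast's own peaks the shares were 25.04% and 22.8% in B6/CAST epiblast against 22.5% and 18.8% in matDKO/CAST epiblast, without overlap (exact permutation p = 0.333), and over the peaks of ExE the groups again overlapped (exact permutation p = 1). Summed promoter H3K4me3 of epiblast genes ran from 183 to 259 RPKM in epiblast libraries and from 93.3 to 152 in ExE libraries, whereas that of ExE genes ran from 162 to 245 in ExE and from 127 to 194 in epiblast, so the 2 tissues were apart by the first list and overlapped by the second. That of visceral endoderm genes, the tissue that covers both, ran from 51.5 to 109 RPKM over all libraries, and its part in the results was not tested.

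In the epiblast, 13 of 20732 regions passed an adjusted p of 0.05 (0.0627%; limma on log2(RPKM + 0.5) with Benjamini-Hochberg adjustment over all 20799 regions), 7 lower (0.0338%) and 6 higher (0.0289%) in matDKO/CAST. With the regions set apart included, 20 of 20799 passed (0.0962%), and 2313 (11.1%) had an unadjusted p under 0.05. In ExE, limma called 0 of 20616 regions (0%) and, with those set apart, 2 of 20799 (0.00962%), while 1601 (7.7%) had an unadjusted p under 0.05. A test of the difference between the 2 tissues passed at 0 regions, with 1047 of 20799 (5.03%) at an unadjusted p under 0.05. Between the wild-type crosses, limma called 1 region in ExE (0.00481%) and 30 in epiblast (0.144%). Counts of calls depended on the test: edgeR on the recovered reads, with TMM scaling, called 189 regions in ExE (0.917%), of which 127 (0.616%) were higher and 62 (0.301%) lower in matDKO/CAST. In epiblast it called 276 (1.33%), of which 40 (0.193%) were higher and 236 (1.14%) lower. DESeq2 gave an adjusted p to only 10315 regions in ExE and 5476 in epiblast. Of these it called 117 in ExE (88 higher, 29 lower) and 292 in epiblast (39 higher, 253 lower). In ExE the balance of directions turned with the fit: edgeR with library totals called 10 higher and 20 lower, limma on the 6 ExE libraries 41 and 145, and limma on the 4 libraries of the 2 groups 38 and 167. In epiblast edgeR with library totals called 9 higher and 20 lower. Without matDKO/CAST epiblast replicate 1 limma called 726 regions, without replicate 2 it called 4, and without B6/CAST replicates 1 and 2 it called 8 and 5.

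The largest fall in the epiblast among regions with a start site was at Zdbf2, an imprinted gene expressed from the paternal chromosome, where a domain of 65 kb (chr1:63219001-63284000) covers the start in its 3' part and reaches upstream. B6/CAST libraries read 2.84 and 3.52 RPKM, CAST/B6 4.50 and 4.25, and matDKO/CAST 0.814 and 0.791. Both matDKO/CAST libraries lay below all 4 wild-type libraries. The difference was -1.49 on the log2 scale (SE 0.17, adjusted p = 0.00235 by limma), and 24 of 25 alternatives called it, the exception being limma on the 4 libraries of the 2 groups alone. Input over the domain was level, at 0.546 RPKM in matDKO/CAST and 0.551 in B6/CAST.

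**Figure D1:**
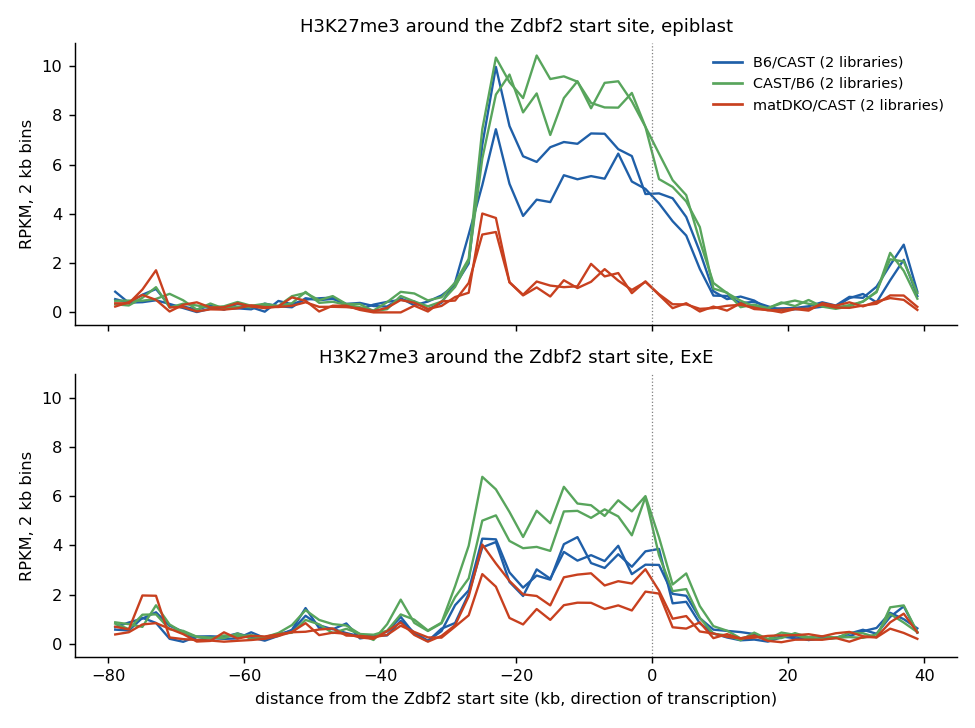
H3K27me3 in RPKM over 2 kb bins by distance in kb from the Zdbf2 start site in the direction of transcription, for epiblast (top) and ExE (bottom), with 1 line per library and 2 libraries per cross. In epiblast the matDKO/CAST lines stay well under the wild-type lines from about the upstream edge of the domain to the start, and in ExE they lie between 0 and the lower wild-type lines over much of it.

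Within 2 kb of the Zdbf2 start, epiblast H3K27me3 was 4.72 and 4.82 RPKM in B6/CAST against 0.99 and 0.98 in matDKO/CAST. A second region within Zdbf2 (chr1:63306501-63317500) fell too, from 0.895 and 1.28 RPKM to 0.388 and 0.334 (log2 -0.87, SE 0.13, adjusted p = 0.0173, limma). In ExE, the large domain read 1.95 and 1.89 RPKM in B6/CAST, 3.11 and 2.64 in CAST/B6 and 1.46 and 1.00 in matDKO/CAST. The 2 matDKO/CAST libraries were again the lowest, but the log2 difference of -0.50 (SE 0.17) had an adjusted p of 0.494 by limma, while edgeR gave -0.62 with an adjusted p of 0.0149. The difference of the 2 tissues at this domain was 1.00 on the log2 scale, with an unadjusted p of 0.0009 and an adjusted p of 0.577.

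Reads that overlap a strain polymorphism were assigned to a parent by the authors, with an added step for 129 alleles in matDKO/CAST, so read numbers are not matched between crosses for depth or usable polymorphisms, and the share within a library is the value to compare. With these reads, the maternal reads of the Zdbf2 domain in epiblast numbered 606 and 584 in B6/CAST against 115 and 28 in matDKO/CAST, and the paternal reads 112 and 89 against 82 and 15. The paternal share was 15.6% and 13.2% in B6/CAST, 12.1% and 11.4% in CAST/B6, and 41.6% and 34.9% in matDKO/CAST. In ExE the paternal share was 26.6% and 25.9% in B6/CAST against 29.9% and 39.3% in matDKO/CAST. Within 2 kb of the upstream start, H3K4me3, a mark of active starts, read 0.93 and 1.07 RPKM in B6/CAST epiblast, 0.21 and 0.82 in CAST/B6 and 3.26 and 4.16 in matDKO/CAST. In ExE it read 2.71 and 2.00, then 0.78 and 0.87, and 4.16 and 4.69. In each tissue both matDKO/CAST libraries were above every wild-type library (exact permutation p = 0.333 against B6/CAST, the lowest possible). H3K36me3, which follows transcription, read 1.08 and 0.67 RPKM here in B6/CAST epiblast, 0.51 and 0.57 in CAST/B6 and 0.16 and 0.24 in matDKO/CAST. In ExE it read 0.41 and 0.56, then 0.66 and 0.28, and 0.24 and 0.30, where matDKO/CAST overlapped CAST/B6.

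The other epiblast regions that fell were short or weak. Slc16a6, a solute carrier gene, has its start in a region that read 1.69 and 2.40 RPKM in B6/CAST against 0.919 and 0.544 in matDKO/CAST (log2 -1.05, adjusted p = 0.0404). Adgre4, an adhesion receptor gene of macrophages, held a region at 1.01 and 1.10 RPKM that fell to 0.410 and 0.109 (-1.06, adjusted p = 0.0266). Falls were also called near Slc35b3 (-0.81), Scamp5 (-0.74) and Akap13 (-0.72), and the 6 rises, near Map2k6 (0.77), near Rplp1 (0.87), in Plcl1 (0.87), in Grin2b (0.94), near Ttc21b (0.95) and in Epas1 (0.98), were at regions of 3.5 kb or less. edgeR called 6 of the 7 falls and 0 of the 6 rises. The Slc16a6 and Map2k6 regions lie on chromosome 11, where B6/CAST epiblast replicate 1 stood apart in input and H3K27me3, as given below.

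At the Gnas locus, which makes several imprinted transcripts from different starts, H3K27me3 over the Nesp start (chr2:174284001-174289000) in ExE read 1.14 and 0.964 RPKM in B6/CAST, 1.41 and 0.815 in CAST/B6 and 0.257 and 0.175 in matDKO/CAST. The matDKO/CAST libraries were the 2 lowest, at a log2 difference of -1.12 (SE 0.18) whose adjusted p by limma was 0.0903. edgeR gave -2.24 with an adjusted p of 0.0014 in ExE and -1.88 with an adjusted p of 0.0609 in epiblast, and in ExE 6 of 26 alternatives called it. B6/CAST ExE libraries held 25 and 13 maternal and 2 and 3 paternal reads here, paternal shares of 7.41% and 18.8%. matDKO/CAST ExE libraries held 0 maternal reads and 1 paternal read each, too few for a share to be read. H3K4me3 within 2 kb of the Nesp start was also lower, at 19.7 and 15.1 RPKM in B6/CAST epiblast against 3.63 and 2.96 in matDKO/CAST, and at 9.60 and 9.87 against 2.55 and 3.64 in ExE.

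Further into the locus, over the Nespas and Gnasxl starts (chr2:174294001-174302000), H3K27me3 in ExE was 1.72 and 1.51 RPKM in B6/CAST against 2.91 and 2.28 in matDKO/CAST. In epiblast it was 2.06 and 2.54 in B6/CAST against 3.86 and 2.48 in matDKO/CAST, and the groups overlapped (exact permutation p = 0.667). In the region that holds most of this interval, the paternal share was 87.8% and 86.5% in B6/CAST ExE against 36.8% and 47.1% in matDKO/CAST ExE. H3K36me3, which follows transcription, was lower over the same interval in matDKO/CAST, at 0.45 and 0.40 RPKM against 1.80 and 1.99 in ExE and at 0.24 and 0.36 against 2.37 and 2.32 in epiblast. H3K27me3 and H3K36me3 did not overlap between these 2 groups in ExE, which is the lowest possible exact p of 0.333. H3K4me3 over the interval was higher in matDKO/CAST, at 15.96 and 21.02 RPKM against 11.82 and 10.22 in B6/CAST ExE. The epiblast values were 25.79 and 17.69 RPKM in matDKO/CAST against 14.19 and 12.14 in B6/CAST. Both matDKO/CAST libraries were above every wild-type library in H3K4me3 in each tissue (exact permutation p = 0.333 against B6/CAST).

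At the imprinted clusters whose genes are silenced at a distance, total H3K27me3 read higher in both matDKO/CAST ExE libraries, with 0 calls by limma. Over the Igf2r and Airn cluster, mean H3K27me3 was 1.57 and 1.38 RPKM in B6/CAST, 1.54 and 1.33 in CAST/B6 and 2.62 and 1.76 in matDKO/CAST, a ratio of 1.49 to B6/CAST. Over the Kcnq1 cluster the values were 2.00 and 1.77, 2.27 and 2.07, and 3.14 and 2.298, a ratio of 1.44. In both clusters the 2 matDKO/CAST libraries were above every wild-type library in ExE, with an exact permutation p of 0.333 against B6/CAST and of 0.133 against the 4 wild-type libraries, the 4 taken as 1 group. Leaving out 1 library at a time gave ratios from 1.196 to 1.78 for Igf2r and Airn and from 1.22 to 1.67 for Kcnq1. In epiblast the ratios were 1.26 in both clusters, and for Kcnq1 the matDKO/CAST libraries overlapped those of CAST/B6. Summed H3K27me3 over the whole of chromosome 17, which holds Igf2r and Airn, was 1.177 and 1.011 times that of the wild-type libraries in the same 2 matDKO/CAST ExE libraries, and input was 1.012 and 1.016 times. This sum includes the Igf2r and Airn cluster itself. Over the 786 regions of chromosome 17 the median log2 difference in ExE was 0.0019. Both matDKO/CAST libraries were above both B6/CAST libraries at 132 of them and below at 129. The part of the chromosome sum in the Igf2r and Airn ratio was not tested.

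**Figure D2:**
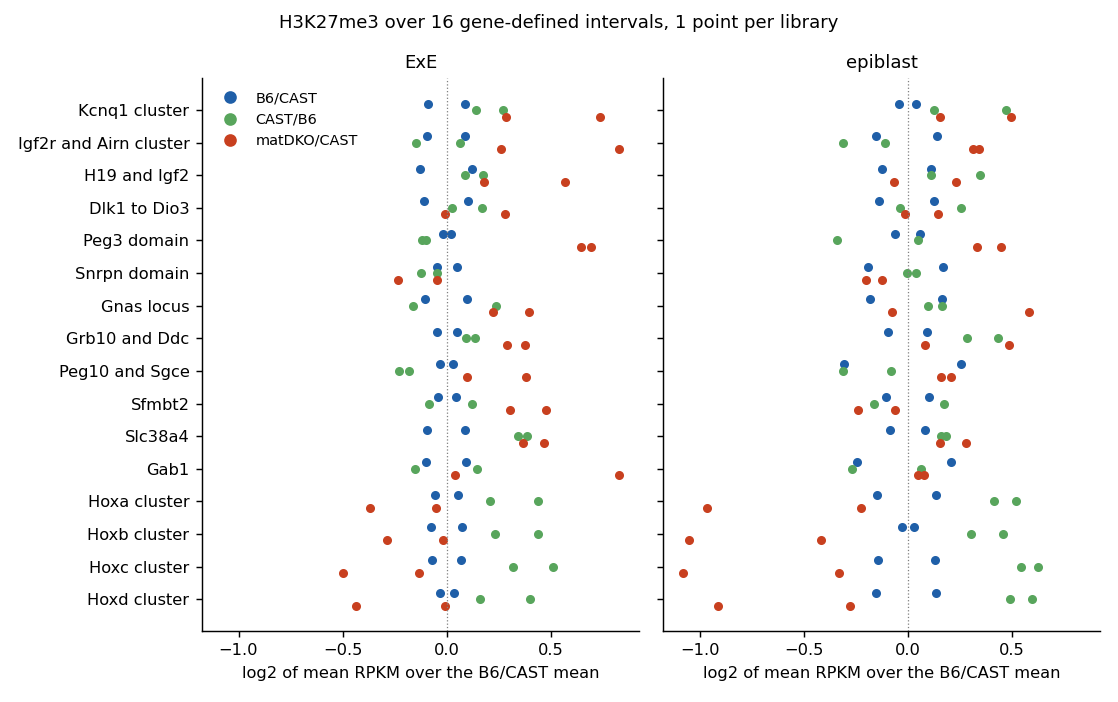
Mean H3K27me3 over 16 gene-defined intervals in each library, as the log2 of its RPKM over the B6/CAST mean, for ExE and epiblast. In ExE the matDKO/CAST points lie to the right of the wild-type points at the Igf2r and Airn, Kcnq1 and Peg3 intervals. They also do so at the H19 and Igf2, Grb10 and Ddc, Peg10 and Sgce, and Sfmbt2 intervals. At the Hox clusters they lie to the left of 0 in epiblast.

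The shares of the 2 parental chromosomes moved with these totals. At Igf2r, Slc22a2 and Slc22a3, the domain from chr17:12372501 held 86.8% and 86.5% paternal reads in B6/CAST ExE against 48.6% and 48.4% in matDKO/CAST ExE, with total H3K27me3 of 2.76 and 2.25 RPKM against 4.85 and 3.49 (log2 0.63, adjusted p = 0.41 by limma; 0.77, adjusted p = 0.0056 by edgeR). At Cdkn1c, a cell-cycle inhibitor, Phlda2, a brake on placental growth, and Slc22a18, total H3K27me3 of the domain from chr7:143297501 was 3.17 and 2.75 RPKM in B6/CAST against 5.34 and 3.97 in matDKO/CAST ExE (log2 0.56, adjusted p = 0.49; edgeR 0.68 and 0.00579). Its paternal share went from 83.5% and 81.5% to 48.8% and 48.6%. edgeR called 10 of the 19 regions of the Igf2r and Airn interval higher in ExE, against 0.616% of all regions, and 1 of the 3 of the Kcnq1 interval. In epiblast it called 0 of the 19 and 0 of the 3 higher. Of 6 different regions over genes silenced at a distance in the 2 clusters, both matDKO/CAST libraries were above both B6/CAST libraries at 5 in ExE and 6 in epiblast, with a median log2 difference of 0.45 and 0.27 against -0.03 and 0.02 over all regions tested, and limma called 0. By the same measure 13.4% of all regions were higher in ExE and 25% in epiblast.

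limma called 0 regions in either tissue at the paternally methylated and non-canonically imprinted genes. edgeR called 1 of 6 regions at paternally methylated loci higher in ExE, against 0.616% of all regions, the one at H19, a growth-restraining RNA gene, and Igf2, a growth factor gene, and 0 of 8 at the non-canonically imprinted genes. The H19 and Igf2 region read 1.87 and 1.58 RPKM in B6/CAST ExE, 2.07 and 1.86 in CAST/B6 ExE and 2.71 and 1.98 in matDKO/CAST ExE (edgeR log2 0.47, adjusted p = 0.0398; limma 0.35, adjusted p = 0.67), and the matDKO/CAST libraries overlapped those of CAST/B6. Over the interval of these genes the paternal share was 67.9% and 69.8% in B6/CAST ExE against 44.5% and 45.6% in matDKO/CAST ExE. The Peg3 domain read 0.416 and 0.405 RPKM in B6/CAST ExE against 0.664 and 0.642 in matDKO/CAST, a ratio of 1.59 that ranged from 1.57 to 1.62 when 1 library was left out. In ExE the ratio was 1.31 for Sfmbt2, 1.34 for Slc38a4 and 1.26 for Grb10 and Ddc, with no overlap with B6/CAST, although Slc38a4 overlapped CAST/B6, and 0.908 for the Snrpn domain, where the groups overlapped. Mean H3K27me3 of B6/CAST ExE was below mean input at Peg3 (0.41 against 0.579 RPKM), Sfmbt2 (0.38 against 0.437), Slc38a4 (0.346 against 0.521) and Grb10 and Ddc (0.498 against 0.565). At the H3K27me3 region that holds the Sfmbt2 start, edgeR gave -0.0028 on the log2 scale (adjusted p = 0.995) in ExE. Over 15 different regions at maternally methylated loci, limma called 1, at Zdbf2, lower in epiblast, against 0.0338% of all regions, and both matDKO/CAST libraries were lower at 3 in epiblast and 4 in ExE, and higher at 4 and 3. Of all regions, 14.8% and 21.1% were lower by this measure and 25% and 13.4% higher. edgeR called 2 of the 15 higher and 2 lower in ExE, against 0.616% and 0.301% of all regions. In epiblast it called 1 of the 15 lower, against 1.14% of all regions. Over 16 regions at germline genes that DNA methylation silences, limma called 0 in each tissue, and edgeR called 1, at Tuba3b, a tubulin gene, higher in ExE, against 0.616% of all regions (log2 0.71, adjusted p = 0.0461, edgeR). Dazl, a germ cell gene of this list, read 1.03 and 0.535 RPKM in B6/CAST ExE against 1.69 and 1.42 in matDKO/CAST (log2 0.70, adjusted p = 0.36, limma).

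At Hox genes and other developmental regulators, classical Polycomb targets, limma called 0 regions in either tissue. At all 4 Hox clusters, which set position along the body axis, both matDKO/CAST libraries were below both B6/CAST libraries in epiblast, with a median log2 difference of -0.46. The same held for 14.8% of all regions, for 48.1% of regions of 2 to under 4 RPKM and for 65.2% of regions of 4 RPKM or more, the 2 classes that hold the 4 Hox regions, and the medians of all regions in these classes were -0.28 and -0.45. Over the Hoxb interval the values were 7.73 and 7.44 RPKM in B6/CAST, 10.4 and 9.36 in CAST/B6 and 5.68 and 3.66 in matDKO/CAST, a ratio of 0.616, where the other 3 clusters gave 0.634 to 0.684. Hoxb lies on chromosome 11, where B6/CAST epiblast replicate 1 had 1.19 times the input and 1.22 times the H3K27me3 of the other wild-type libraries, and the part of this in the Hoxb ratio was not tested. Over Hoxa the values were 9.60 and 11.7, 15.2 and 14.2, and 9.10 and 5.46. In each of the 4 clusters the CAST/B6 libraries were above B6/CAST and the matDKO/CAST libraries below it. edgeR called 3 of the 4 regions lower in epiblast, against 1.14% of all regions, and 1 of these 3 was the Hoxb region.

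Of 62 regions at developmental transcription factor genes, both matDKO/CAST libraries were lower at 33 in epiblast and at 8 in ExE, against 14.8% and 21.1% of all regions, with a median log2 difference of -0.29 and -0.06. By mean level over the 12 libraries, 19.8% of all regions of 1 to under 2 RPKM, 48.1% of those of 2 to under 4 and 65.2% of those of 4 RPKM or more were lower in both matDKO/CAST epiblast libraries. In the same classes the list had 8 of 26, 22 of 32 and 2 of 2, and the difference was not tested. edgeR called 15 of the 62 lower in epiblast, against 1.14% of all regions, and 4 of the 15 lay on chromosomes 3 and 11. In ExE it called 1 of the 62, at T, a mesoderm gene, higher, against 0.616% of all regions (log2 0.47, adjusted p = 0.049, edgeR). Neurog2, which drives neuron formation and lies on chromosome 3, read in epiblast 5.73 and 6.14 RPKM in B6/CAST, 7.63 and 7.12 in CAST/B6 and 4.51 and 2.89 in matDKO/CAST (edgeR log2 -0.73, adjusted p = 0.00757; limma -0.64, adjusted p = 0.28). Sox17, an endoderm gene, read 3.59 and 4.87 RPKM in B6/CAST epiblast against 3.37 and 2.02 in matDKO/CAST epiblast (edgeR log2 -0.66, adjusted p = 0.0291; limma -0.59, adjusted p = 0.31). Of the 2 matDKO/CAST libraries, replicate 2, the one of lower depth, was the lower at both of these genes. Over 5 regions at visceral endoderm genes, which include Sox17, both matDKO/CAST libraries were lower at 3 in each tissue, with medians of -0.41 in epiblast and -0.19 in ExE and 0 calls by limma, while edgeR called 2 lower in epiblast, against 1.14% of all regions. The visceral endoderm list shares Sox17, Foxa2, Gata4 and Gata6 with the transcription factor list, so its counts are not separate from those above.

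**Figure D3:**
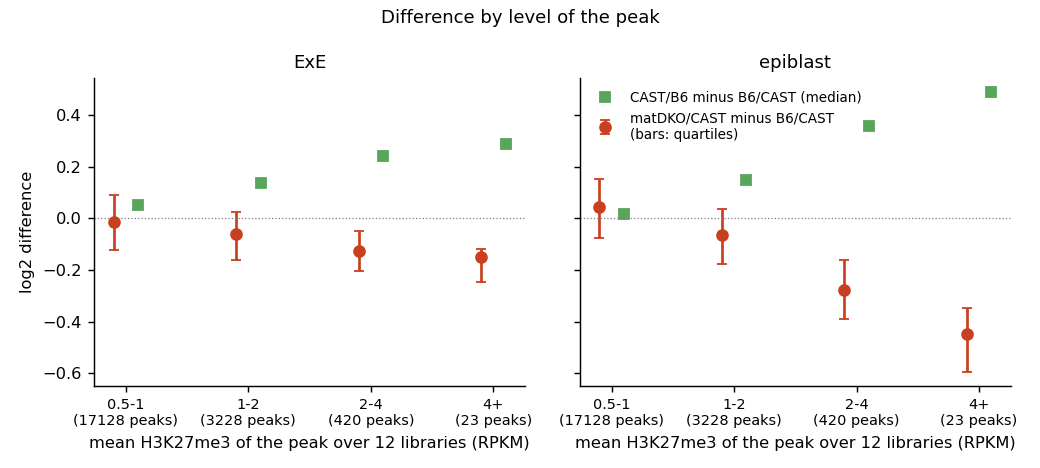
Median log2 difference in H3K27me3 by mean level of the region over 12 libraries (RPKM), for matDKO/CAST minus B6/CAST (points, bars from the lower to the upper quartile) and CAST/B6 minus B6/CAST (squares). Both sets of medians move away from 0 as the level rises, in opposite directions.

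The difference varied with the level of the region, in sign in epiblast and in size in ExE. In epiblast the median log2 difference was 0.04 at the 17128 regions of 0.5 to under 1 RPKM, -0.06 at 3228 regions of 1 to under 2, -0.28 at 420 regions of 2 to under 4 and -0.45 at 23 regions of 4 RPKM or more. CAST/B6 minus B6/CAST gave medians of 0.02, 0.15, 0.36 and 0.49 in the same classes. In ExE the matDKO/CAST medians were -0.01, -0.06, -0.13 and -0.15. These 2 comparisons share the B6/CAST libraries, so the values stand side by side with no test.

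The clustered protocadherin genes, cell-adhesion genes of neurons, read lower in matDKO/CAST ExE, with 0 calls by limma. Both matDKO/CAST libraries lay below both B6/CAST libraries at 8 of 8 regions in ExE and at 1 of 8 in epiblast, against 21.1% and 14.8% of all regions, and edgeR called 1 of the 8 lower in ExE (0.301% of all regions), with medians of -0.30 and -0.05. Pcdha8 and Pcdha12 lay in a region at 2.13 and 2.08 RPKM in B6/CAST ExE against 1.58 and 1.09 in matDKO/CAST (edgeR log2 -0.63, adjusted p = 0.0192; limma adjusted p = 0.54). Epop, whose product binds PRC2, read 1.71 and 1.27 RPKM in B6/CAST epiblast against 0.82 and 0.61 in matDKO/CAST, and 0.51 and 0.36 against 0.46 and 0.50 in ExE. In epiblast that is a log2 difference of -0.71 with an adjusted p of 0.08 by limma (edgeR -1.09, adjusted p = 0.0015), and Epop lies on chromosome 11.

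ExE regions with the smallest unadjusted p in each direction are given as values, since none passed adjustment. The largest rise among them was in Gm42921 on chromosome 3 (chr3:37766501-37799000), with 0.874 and 0.681 RPKM in B6/CAST, 0.599 and 0.659 in CAST/B6 and 1.80 and 1.64 in matDKO/CAST (log2 0.80, adjusted p = 0.128). The paternal share here was 58.1% and 50% in B6/CAST ExE, 45.0% and 47.7% in CAST/B6 ExE and 26.6% and 26.5% in matDKO/CAST ExE. In epiblast this region was 0.780 and 0.531 RPKM against 0.951 and 0.724. Lef1, a Wnt effector, held a region at 0.535 and 0.675 RPKM in B6/CAST that read 1.43 and 1.08 in matDKO/CAST ExE. Ano3, a membrane protein gene, held one at 1.22 and 0.949 RPKM that read 0.460 and 0.442 (log2 -0.73, adjusted p = 0.0903).

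The region upstream of Zp3, the zona pellucida gene whose promoter drives the Cre in matDKO mothers, was set apart by its input. H3K27me3 over chr5:135973001-135982000 read 0.68 and 0.67 RPKM in B6/CAST epiblast against 22.9 and 9.25 in matDKO/CAST epiblast, and 1.08 and 0.77 against 5.48 and 14.7 in ExE. Input read 0.50, 0.59 and 0.54 RPKM in B6/CAST epiblast and 4.38, 2.97 and 0.62 in matDKO/CAST epiblast, and 5.78 and 2.18 in matDKO/CAST ExE. H3K27me3 over input of the same number was 5.24 and 3.11 in epiblast and 2.51 and 2.54 in ExE. In B6/CAST the same ratio was 1.36 and 1.15 in epiblast and 1.796 and 1.46 in ExE, below matDKO/CAST in each tissue. The other 2 marks were higher here too. H3K36me3 read 1.32 and 5.01 RPKM in matDKO/CAST ExE against 0.243 and 0.335 in B6/CAST, and 0.574 and 1.91 against 0.503 and 0.520 in epiblast. H3K4me3 read 1.22 and 1.98 RPKM in matDKO/CAST ExE against 0.552 and 0.676 in B6/CAST, and 1.79 and 2.13 against 0.503 and 0.606 in epiblast. The region was chosen by its input and after its values were seen, so these values are a description with no test, and they are means over all copies of the sequence. Skint6 and Trim30d, also set apart, were called in both tissues, Skint6 at 1.02 and 1.03 RPKM in B6/CAST epiblast against 0 and 0 in matDKO/CAST.

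**Figure D4:**
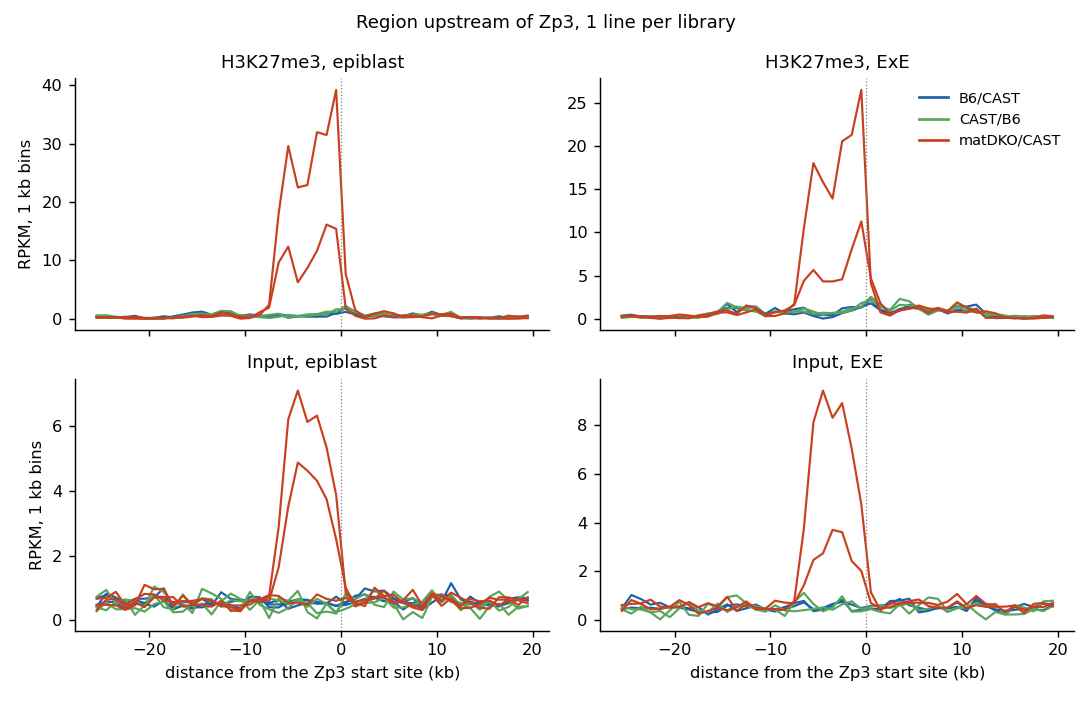
H3K27me3 and input in RPKM over 1 kb bins by distance in kb from the Zp3 start, with 1 line per library, in epiblast and ExE. In both tissues the matDKO/CAST lines rise far above the wild-type lines just upstream of the start, in H3K27me3 and in all but 1 of the matDKO/CAST inputs.

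Chromosomes 3 and 11 stood apart in 1 pool. In B6/CAST epiblast replicate 1, the summed input was 1.17 and 1.19 times that of the other wild-type inputs on these chromosomes, and H3K27me3 was 1.15 and 1.22 times, whereas every other input ratio in epiblast lay between 0.929 and 1.05. Of the 236 regions that edgeR called lower in epiblast, 97 were on chromosomes 3 and 11, which hold 2493 of 20732 regions. Without them, limma called 11 regions in epiblast, 5 higher and 6 lower.

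**Figure D5:**
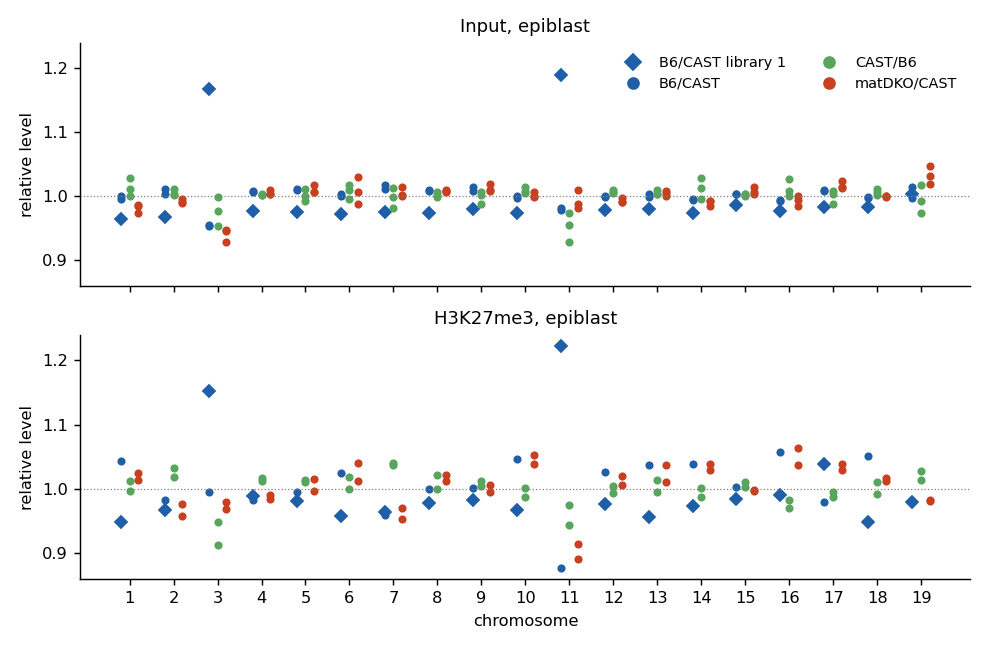
Input (top) and H3K27me3 (bottom) of each epiblast library by chromosome, relative to the other wild-type libraries, with B6/CAST replicate 1 as diamonds. That library lies above 1.1 on chromosomes 3 and 11 and near 1 elsewhere, and the other libraries lie near 1 in input.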

How the data were processed

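The authors trimmed reads with Trim Galore 0.4.4 and aligned them with Bowtie2 2.3.2 to GRCm38 with polymorphisms between B6 and CAST masked. For matDKO/CAST, polymorphisms that 129 shares with CAST were left out of the mask, and reads not assigned to a parent were aligned again to a 129 and CAST genome, so this step differed between the groups compared. They deposited RPKM per 1 kb window for each library, with allele-specific read counts over peaks, and H3K27me3 peak lists of the 2 wild-type crosses, whose deposited score column is 0 in every row and was not used. Here, RPKM was averaged over each region of the autosomal union of the 4 lists, and log2(RPKM + 0.5) was fitted in limma 3.58.1 with group means over all 12 H3K27me3 libraries and a trended prior. Regions under a mean of 0.5 RPKM were left out. Of the values divided by the RPKM of 1 read, 100% were whole within 0.1 in each library, and edgeR 4.0.16 and DESeq2 1.42.0 on these counts served as alternatives. Single values were compared by exact two-sided permutation tests. Regions were matched to start sites of GENCODE vM21. Scripts were tested on simulated data. The members and lists were chosen with earlier results of these data known. Named regions were, in each tissue, called regions not set apart whose groups did not overlap, up to 10 each way with a start site and 3 each way without one, or, with none called, regions from the 5 smallest p-values each way. Up to 4 examples with the largest difference came from each gene list, of which 1 is not reported here, and imprinted loci were given by value. The remaining called regions, the Zp3, Skint6 and Trim30d regions and the finer windows at Gnas and Zdbf2 were chosen after their values were seen.

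The sources do not say that a replicate number marks a shared litter or batch, so numbers did not pair libraries.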

Additional observations from a re-analysis of the deposited data

Results flagged for a closer look

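At the region near Map2k6 the 2 tissues differed in sign, with log2 differences of -0.15 in ExE and 0.77 in epiblast. The difference did not pass adjustment in the test between tissues (unadjusted p = 0.0001, adjusted p = 0.519, limma).

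Input upstream of Zp3 reached 5.78 RPKM in matDKO/CAST ExE and 4.38 RPKM in matDKO/CAST epiblast, above the highest of 0.604 and 0.587 RPKM in B6/CAST. The input of B6/CAST epiblast replicate 1 on chromosomes 3 and 11 was 1.17 and 1.19 times that of the other wild-type inputs.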

How the results depend on the processing

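In ExE the 0 calls became 186 with the 6 ExE libraries alone, 205 with the 4 libraries of the 2 groups, 1 with scaling to enrichment, 44 with both wild-type crosses as the control, 189 with edgeR and TMM, 30 with edgeR and library totals, 117 with DESeq2, 1 with scaling to the autosomal sum and 11 with regions of at least 5 kb. In epiblast the 13 calls became 0 with the 4 libraries, 68 with the epiblast lists alone, 44 with scaling to enrichment, 35 with input subtracted, 3 at an adjusted p under 0.01, 4 with array weights, 619 with both wild-type crosses as the control, 276 with edgeR and TMM, 29 with edgeR and library totals, 292 with DESeq2, 8 with scaling to the autosomal sum and 71 with regions of at least 5 kb. Leaving out 1 library gave 0 in ExE and 4 to 726 in epiblast, and 0 to 84 for the difference between tissues (84 without matDKO/CAST epiblast replicate 1, 1 without replicate 2), where edgeR called 1. The cause of these changes was not tested. With the median of each library centred, CAST/B6 minus B6/CAST called 0 in ExE (1 otherwise) and 6 in epiblast (30 otherwise). The Peg3 ratio in ExE was 1.64 when each library was divided by its mean over the tested regions. With the replicate block, limma called 1 region in epiblast and 0 in ExE. The correlations of deviations of same-numbered libraries were -0.108 in ExE and -0.0501 in epiblast. With 2 libraries in a group the deviations mirror each other, so these values cannot tell whether a number marks a shared litter or batch. Scaling to the autosomal sum, the 5 kb minimum, leaving out chromosomes 3 and 11, a robust prior, centring by chromosome and leaving out the inputs labelled with no 129 were chosen after seeing the data. No value changed sign past a threshold, 214 of the values that answer a comparison kept their call and direction, and 32 moved. Depth limited matDKO/CAST epiblast replicate 2 most, where 1 read in a 1 kb window is worth 0.272 RPKM.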
